A study of Rattus norvegicus with 43 samples.

Results

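The genes described here are 10 genes of antigen-presenting cells and macrophages in the rat anterior pituitary, taken by symbol from the 14217 genes that the array's annotation names singly. They comprise 5 genes of MHC class II antigen presentation, Cd74, RT1-Da, RT1-Db1, RT1-Ba and RT1-Bb, and 5 genes of macrophages or of all leukocytes, Mrc1, Cd163, Cd68, Csf1r and Ptprc. They were measured by 16 probe sets, and each gene was represented by the probe set with the highest mean. Of the 10 genes, 9 passed the filter on dim probe sets, a mean above the median probe set (7.16 on the log2 scale), and Cd163 did not.

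The arrays came from the anterior pituitary glands of 43 male COPxACI F2 rats, 1 array per rat, all treated alike. Each rat had received an implant with 5 mg of diethylstilbestrol (DES), a synthetic estrogen under which the lactotrophs of the rat pituitary proliferate, at 9 weeks of age, and was sacrificed after 12 weeks of treatment, at 21 weeks of age. BrdU had been injected at 50 mg/kg 4 h before sacrifice. The design text states that the rats had the 22 highest or the 21 lowest pituitary weights of their population. No label ties a rat to a weight class or a genotype, and untreated rats were not analysed here, so the comparisons run across the 43 rats, and a relation across rats chosen for extreme weights may differ in size from that in an unselected population.

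MHC class II molecules are pairs of an alpha and a beta chain that carry peptides of engulfed proteins to the surface of dendritic cells, macrophages and B cells, where CD4 T cells read them. The rat has a D pair, encoded by RT1-Da and RT1-Db1 and related to human HLA-DR, and a B pair, encoded by RT1-Ba and RT1-Bb and related to human HLA-DQ, and CD74, the invariant chain, fills the groove of new molecules and guides them to endosomes. Macrophages live in most tissues, the pituitary included, where the receptor CSF1R keeps them alive, CD68 lines their lysosomes, and the scavenger receptors CD163 and MRC1 take up haemoglobin complexes and mannose-bearing glycoproteins.

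The hormone genes of the anterior lobe had the brightest signals, Prl averaging 15.61 and Gh1 14.97 on the log2(intensity + 16) scale. Of the 4 genes listed for the posterior lobe, 3, Avp and Oxt among them, were dim, while Nefl averaged 8.75. Pomc of the corticotrophs was dim too. The array of animal 43 stood apart from the rest, with a mean correlation of 0.93 with the other arrays. For each of those the mean correlation with all the rest, animal 43 included, was 0.97 to 0.98. The array of animal 43 also had the largest 3 prime minus 5 prime signal of actin, 1.97 on the log2 scale against 1.26 to 1.67. Results are given without it where it changed a call. In bulk tissue, fewer cells of a type and less RNA per cell cannot be told apart.

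The 4 chain genes neighbour each other on chromosome 20 in the order RT1-Da, RT1-Db1, RT1-Ba, RT1-Bb, with RT1-Db2, which has no probe set of its own here, between RT1-Da and RT1-Db1. Cd74 lies on chromosome 18, as does Csf1r, with 6 protein-coding genes between them. Transcription of class II genes and of Cd74 is known to depend on a module upstream of the start, in which the X box binds the RFX complex and the Y box binds NF-Y, and which the coactivator CIITA then occupies. The 150 bases before the RefSeq start of each of the 5 genes (build GRCr8) are printed because these genes moved together across the rats; capitals mark matches to the Y box core CTGATTGG and to the X box core TNGCAAC, searched on both strands with letters chosen after these promoters had been read.
RT1-Da (chr20:4515265-4515414, plus strand): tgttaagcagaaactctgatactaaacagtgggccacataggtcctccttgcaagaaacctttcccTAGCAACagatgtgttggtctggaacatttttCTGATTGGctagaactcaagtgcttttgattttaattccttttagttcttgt
RT1-Db1 (chr20:4560163-4560312, minus strand): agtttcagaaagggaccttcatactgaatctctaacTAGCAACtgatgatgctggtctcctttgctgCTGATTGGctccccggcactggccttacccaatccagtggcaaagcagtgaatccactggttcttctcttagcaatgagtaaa
RT1-Ba (chr20:4576907-4577056, plus strand): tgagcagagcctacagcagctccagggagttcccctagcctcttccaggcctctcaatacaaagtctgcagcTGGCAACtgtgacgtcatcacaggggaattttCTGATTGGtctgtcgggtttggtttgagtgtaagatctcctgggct
RT1-Bb (chr20:4604119-4604268, minus strand): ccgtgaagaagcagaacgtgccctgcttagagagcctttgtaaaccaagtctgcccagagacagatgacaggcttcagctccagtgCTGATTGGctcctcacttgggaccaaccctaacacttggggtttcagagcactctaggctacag
Cd74 (chr18:56527056-56527205, plus strand): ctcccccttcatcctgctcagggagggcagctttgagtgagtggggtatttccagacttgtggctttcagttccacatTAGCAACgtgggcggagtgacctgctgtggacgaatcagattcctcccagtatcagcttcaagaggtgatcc
The Y box core was found in the 4 chain genes, and the X box core in Cd74, RT1-Da, RT1-Db1 and RT1-Ba. In RT1-Da and RT1-Ba the X box core began 32 bases before the Y box core, and in RT1-Db1 31 bases before it. Among windows of the same length of 27457 genes, 2.52% held the Y box core, 5.44% the X box core and 0.113% both. Of the 5 macrophage genes, Cd68 held the Y box core on the reverse strand and none held the X box core. A match is a description of the letters only.

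All 5 class II genes differed several-fold between rats. Cd74 had an intensity of 2299 in the lowest rat, 4757 in the median rat and 10732 in the highest (12.21 ± 0.50 on the log2 scale, SD, n = 43). Its highest value was 4.64 times its lowest, both after addition of 16. RT1-Da, the alpha chain of the D pair, ran from 1709 through a median of 3371 to 6780 (11.75 ± 0.50), and RT1-Db1, its beta chain, from 458.5 through 971.5 to 2068 (9.93 ± 0.49). These spreads were like that of Cd74, at 3.94-fold and 4.39-fold. RT1-Ba, the alpha chain of the B pair, ran from 434.7 through 872.8 to 1980 (9.80 ± 0.51). RT1-Bb, its beta chain, had the widest range of the 5, 5.20-fold, from 819.9 through 1895 to 4327 (10.88 ± 0.55). Each SD was larger than that of at least 98.5% of the 200 probe sets nearest in mean.

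The same rats were at the ends for each of them. Animals 31 and 36 were among the 5 highest for all 5 genes, and animals 15 and 20 among the 5 lowest for all 5. In animal 31 Cd74 reached 10732 and RT1-Bb 4327, and in animal 36 they reached 9060 and 4130. In animal 15 they were at 2306 and 819.9, and in animal 20 at 2402 and 893.3. The 10 highest rats of each gene had 7 animals in common, and the 10 lowest had 6.

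**Figure D1:**
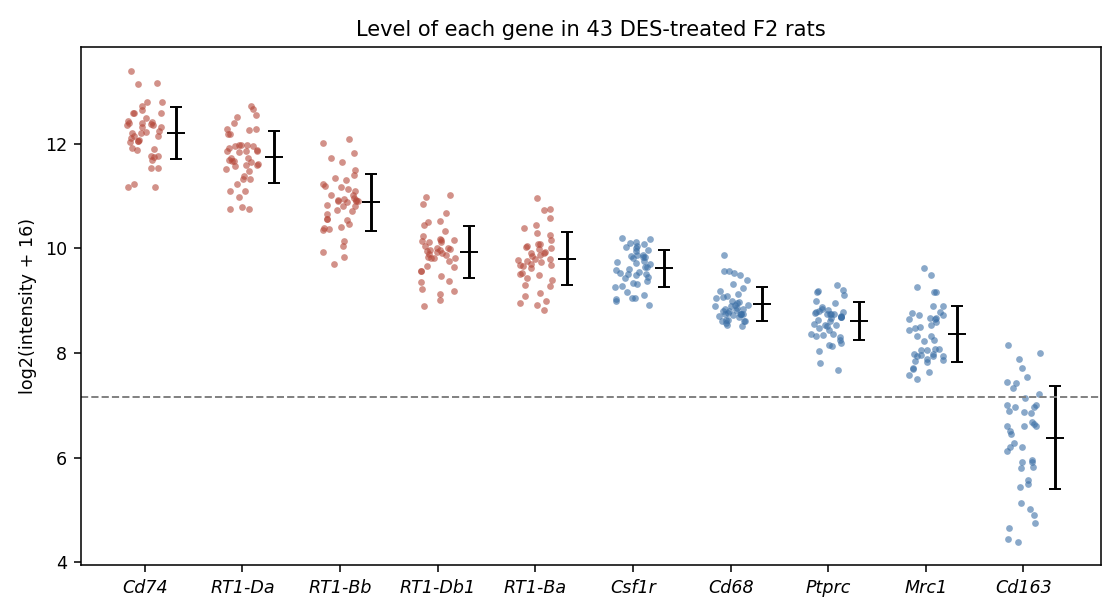
Level of each of the 10 genes on the log2(intensity + 16) scale (vertical axis) in 43 rats, 1 point per rat, with class II genes in red and macrophage and leukocyte genes in blue. Bars give mean ± SD, and the dashed line is the filter threshold of 7.16; Cd163 has the widest spread (SD 0.98) and its mean lies below the line, and heights of different genes come from different probe sets and are not comparable.

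Levels of the 5 genes rose and fell together across the rats. In regressions of every probe set on 1 gene at a time, all 10 pairs of class II genes passed the threshold (limma, Benjamini-Hochberg adjusted P below 0.05 over all probe sets of other genes) with either gene as predictor. The regression on Cd74 called 0.142% of all probe sets (0.122% higher and 0.0193% lower with it), that on RT1-Da 0.193%, on RT1-Ba 0.0644%, on RT1-Bb 0.219% and on RT1-Db1 0.174%. Pearson's r lay between 0.81 and 0.96 with a median of 0.91, and Spearman's rho between 0.73 and 0.95. The closest pairs were RT1-Bb with RT1-Db1 (r = 0.96, rho = 0.95) and RT1-Bb with Cd74 (r = 0.96, rho = 0.93), each with a 2-sided permutation P of 1e-05, the smallest that 100000 permutations can give. RT1-Ba was the loosest member, with r of 0.81 to 0.85. On the log2 scale, RT1-Bb was higher by 1.06 ± 0.05 (SE) per unit of Cd74, RT1-Db1 by 0.93 ± 0.05, RT1-Da by 0.89 ± 0.07 and RT1-Ba by 0.83 ± 0.09.

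Without the 2 rats farthest from the median of the predictor, r was still 0.77 to 0.95. It was 0.76 to 0.97 in animals 1 to 22 and 0.80 to 0.96 in animals 23 to 43, the animal number being the only label that differs between rats. None of the 5 genes had a trend over the animal number (natural spline, adjusted P of 0.56 to 0.93), whereas 39% of all probe sets had one (6056 probe sets, 3843 without animal 43 and 2546 with array quality, the 3 prime minus 5 prime signal of actin and GAPDH, as covariate). Animal 43 lay off the line for RT1-Da, with RT1-Da at 12.27 and Cd74 at 11.88; without that rat r between these genes was 0.93, against 0.89 with it.

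The bright probe sets carried this pattern. A further RT1-Ba probe set above the filter had r = 0.73 with the representative and 0.66 with Cd74, and a dim RT1-Db1 probe set had r = 0.47 with its own. The other RT1-Ba probe sets (r = 0.08 and 0.11) and the other RT1-Bb probe set (r = -0.05, mean 5.00) were dim and did not follow. With the mean of all probe sets of a gene in place of the brightest, 5 pairs with RT1-Ba or RT1-Bb were not called (r = 0.43 to 0.56). The RT1-Db1 representative is of the kind that can match more than 1 transcript of a family, so RT1-Db1 and RT1-Db2 may share it.

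**Figure D2:**
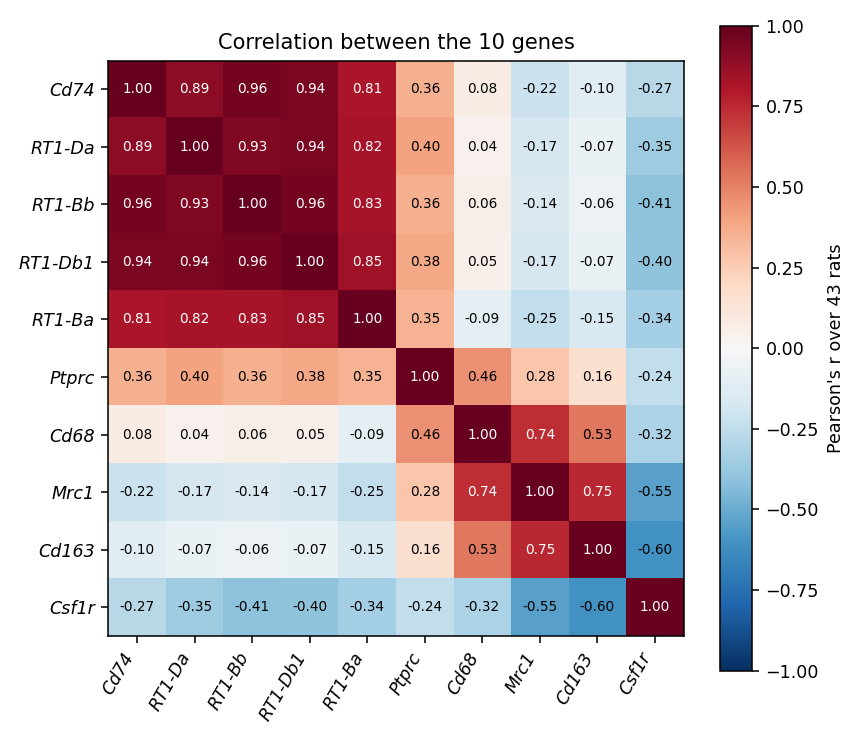
Pearson's r over 43 rats between the 10 genes, printed in each cell and coloured from blue (-1) through white (0) to red (1). The 5 class II genes form a block of 0.81 to 0.96, Mrc1, Cd163 and Cd68 a block of 0.53 to 0.75, and Csf1r is negative with all 9 others.

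Outside the 5 genes, few probe sets followed Cd74, those of RT1-DMb and RT1-DMa among them. RT1-DMb (r = 0.73, adjusted P = 0.00012) and RT1-DMa (r = 0.67, adjusted P = 0.0014), the chains of the DM molecule that exchanges the CD74 fragment for peptide, were both higher with Cd74. They were the only 2 of the 7 accessory chains listed that have a probe set of their own here. RT1-DMb was also higher with each of the other 4 class II genes (r = 0.66 to 0.79). Of the 13 interferon gamma response genes tested, 1, the immunoproteasome subunit Psmb9 (r = 0.60, adjusted P = 0.011), was higher with Cd74 and none lower (median r = 0.33, against 0.01 over all probe sets).

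Psmb9 lies in the class II region, between RT1-Bb and RT1-DMb, as do Psmb8 and Tap1, a subunit of the peptide transporter for class I molecules. Psmb8 (r = 0.49 with Cd74, adjusted P = 0.22) and Tap1 (r = 0.31) did not pass. Brd2, farther along, had r = 0.02, and Tcof1, next to Cd74 on chromosome 18, had r = 0.11. A place near these genes did not go with a correlation with Cd74 in each case.

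Regulators and proteases of the pathway did not pass the test. Of the 6 class II regulators tested, 0 passed with any of the 5 class II genes as predictor (limma; 0 or 1 of 6 in each fit at an unadjusted P below 0.05), and r with Cd74 ran from -0.36 for Nfyc to 0.19 for Rfx5, subunits of NF-Y and of RFX. Ciita was dim (mean 6.39) and was not tested; its r with Cd74 was 0.25. Of 10 endosomal proteases and related genes, 0 passed with any of the 5 (1 to 4 in each fit at an unadjusted P below 0.05). Cathepsin S, Ctss, which cleaves CD74 in endosomes, had r = -0.16 with Cd74, and legumain, Lgmn, had r = -0.45 (adjusted P = 0.46).

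Among macrophage core genes, 2 of 19 were higher with Cd74, lysozyme Lyz2 (r = 0.64, adjusted P = 0.0018) and the Fc receptor Fcgr3a (r = 0.64, adjusted P = 0.0028), and none was lower (median r = -0.03). Outside the lists, the genes with the highest t were Cxcl16, a chemokine made by antigen-presenting cells (r = 0.68, adjusted P = 0.00056), Bst2, an interferon-induced antiviral membrane protein (r = 0.68), Xdh, xanthine dehydrogenase (r = 0.64), Exog, a mitochondrial nuclease (r = 0.59), and Cybb, the catalytic subunit of the phagocyte NADPH oxidase (r = 0.57, adjusted P = 0.026). Cxcl16 and RT1-DMb were higher with each of the 5 class II genes used as predictor. The next genes in order, Lgals3bp, Clec7a and Irf9, had r of 0.55, 0.53 and 0.54 and did not pass. With RT1-Bb as predictor 2 of the 19 macrophage core genes were higher and 2 lower. That fit called 0.155% of all probe sets higher and 0.0644% lower.

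At the other end, Fcrl2, an Fc receptor-like gene (r = -0.62, adjusted P = 0.0056), and Cndp1, carnosinase (r = -0.61, adjusted P = 0.0071), were lower with Cd74. Gatm, an enzyme of creatine synthesis (r = -0.53, adjusted P = 0.082), and P2ry12, a purine receptor typical of microglia (r = -0.47, adjusted P = 0.24), did not pass. Lyve1, a hyaluronan receptor of lymphatic vessels and some resident macrophages, was lower with 4 of the 5 class II genes, at r of -0.63 with RT1-Da, -0.58 with RT1-Ba, -0.58 with RT1-Db1 and -0.55 with RT1-Bb. With Cd74 itself its r was -0.44 (adjusted P = 0.44).

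The macrophage genes varied less uniformly. Mrc1 had intensities of 165.5 in the lowest rat, 304.0 in the median rat and 771.8 in the highest (8.36 ± 0.53). Cd68 ran from 349.0 through 444.7 to 924.3 (8.94 ± 0.32), with its highest values drawn out upwards. Csf1r ran from 468.0 through 785.0 to 1153 (9.62 ± 0.36), a range of 2.42-fold, the narrowest of the 10 genes. Ptprc, the leukocyte antigen CD45, ran from 188.1 through 395.0 to 612.8 (8.61 ± 0.36). Cd163 was dim, at 5.0, 80.9 and 268.8 (6.38 ± 0.98), so that its low values depend on the 16 that was added. Against the 200 probe sets nearest in mean, the SD of Mrc1, Csf1r and Ptprc was above the 90th percentile, and that of Cd68 was at 83.5.

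Mrc1, Cd163 and Cd68 were high in the same rats. Animals 2, 8, 10 and 14 were among the 5 highest for each of these 3 genes. In animal 14 Mrc1 was at 771.8, Cd163 at 238.9 and Cd68 at 924.3. That rat was low in class II genes, with Cd74 at 2961. In animals 2, 8 and 10 Cd74 was at 5264, 4268 and 5764, against 4757 in the median rat. At the low end the 5 lowest rats of the 3 genes had no animal in common.

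Mrc1 and Cd68 passed the test in both directions, in fits that called 17.8% and 2.92% of all probe sets (r = 0.74, rho = 0.59, permutation P = 1e-05 for r and 6e-05 for rho; adjusted P = 3.4e-06 with Mrc1 as predictor). Cd68 was higher by 0.45 ± 0.06 per unit of Mrc1 on the log2 scale. Their r was 0.65 without the 2 rats farthest from the median, 0.74 in animals 1 to 22 and 0.45 in animals 23 to 43. With ranks in place of log2 values the pair was not called (adjusted P = 0.075). Cd163, used only as a predictor because it failed the filter, called 13.2% of all probe sets, among them Mrc1 (r = 0.75, adjusted P = 2.3e-06) and Cd68 (r = 0.53, adjusted P = 0.0043). With Mrc1 its r was 0.86 in animals 1 to 22 and 0.03 in animals 23 to 43, where Cd163 was near the bottom of the scale.

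Csf1r ran against them. It was lower with Mrc1 (r = -0.55, rho = -0.58, permutation P = 0.00019 for r and 6e-05 for rho; adjusted P = 0.0021 with Mrc1 and 0.0033 with Csf1r as predictor, the Csf1r fit calling 11.5% of all probe sets), and r was -0.59 without the 2 rats farthest from the median. With Cd163 as predictor r was -0.60 (adjusted P = 0.00071), and with Cd68 it was -0.32 (adjusted P = 0.19). The relation with Mrc1 did not hold within ranges of the animal number, where r was -0.26 in animals 1 to 22 and -0.05 in animals 23 to 43.

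Mrc1 and Csf1r both followed the animal number. The spline took 59.0% of the variance of Mrc1 (adjusted P = 6.1e-05) and 39.7% of that of Csf1r (adjusted P = 0.0098, and 0.052 with array quality as covariate). Cd68 (29.7%, adjusted P = 0.063) and Ptprc (18.6%, adjusted P = 0.29) did not pass. The median of Mrc1 was 8.70 in animals 1 to 22 and 7.95 in animals 23 to 43, that of Cd163 6.99 and 5.79, that of Cd68 9.02 and 8.74, and that of Csf1r 9.44 and 9.86. For Cd74 the medians were 12.20 and 12.24. The break after animal 22 was the place where earlier results of these data put the largest shift of all probe sets. It leaves 22 and 21 rats, as many as the weight classes hold, but no label says what the numbers stand for, so handling order, weight class and other differences between these rats cannot be told apart.

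**Figure D3:**
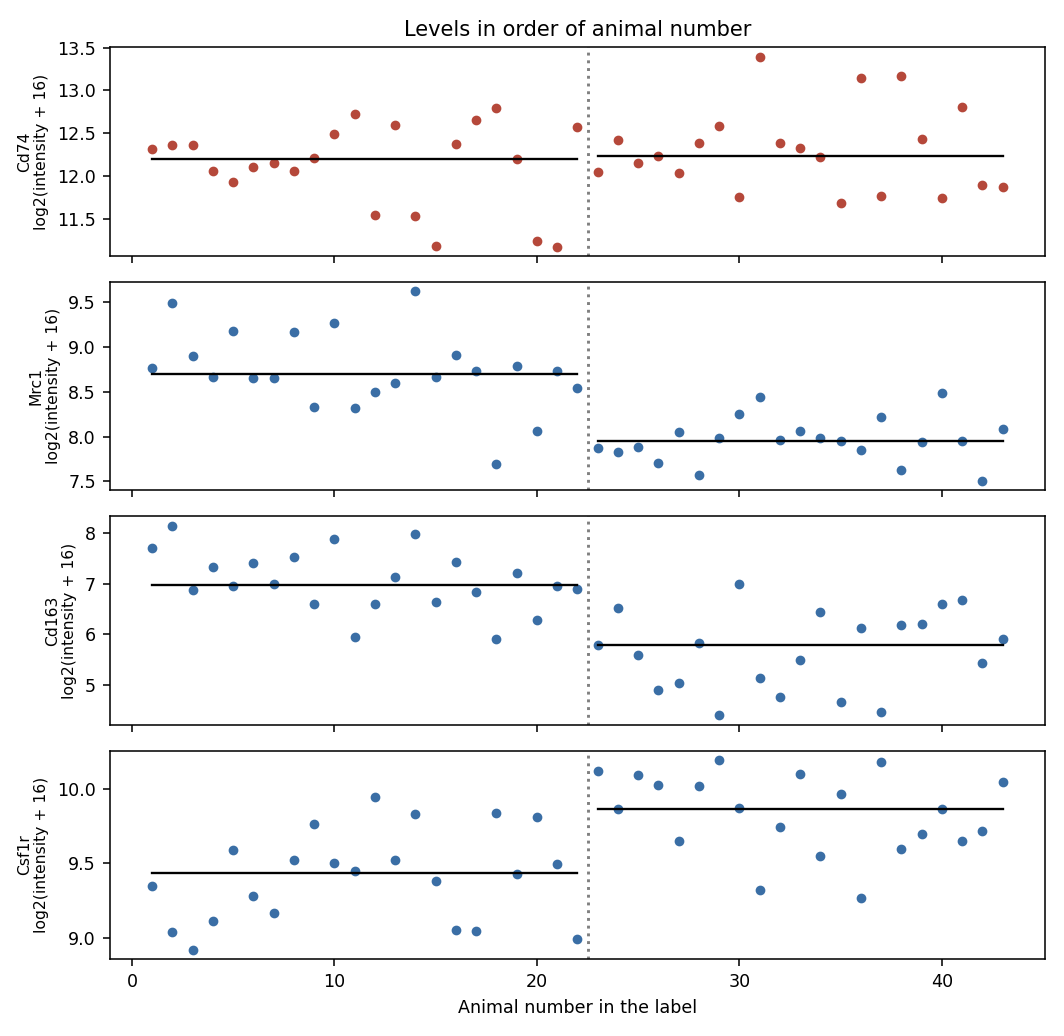
Levels of Cd74 (red), Mrc1, Cd163 and Csf1r (blue) on the log2(intensity + 16) scale against the animal number in the label, 1 point per rat, with lines at the medians of animals 1 to 22 and 23 to 43 and a dotted line at the break. Mrc1 and Cd163 are lower and Csf1r higher after the break, while the Cd74 medians differ little (12.20 and 12.24).

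The genes with the highest t in the Mrc1 fit included many of resident and scavenging macrophages. The fit called 8.49% of all probe sets higher and 9.35% lower with Mrc1. Of 11 tested genes of the list of resident and scavenger macrophage genes, 6 were higher with Mrc1 and 1, Gas6, was lower (median r = 0.43, against -0.01 over all probe sets). The closest were the iron exporter Slc40a1 (r = 0.91, adjusted P = 2.2e-15) and the endocytic adaptor Dab2 (r = 0.91), followed by the haem-degrading enzyme Hmox1 (r = 0.82) and the chemokine Pf4 (r = 0.77). Of the 19 macrophage core genes, 3 were higher, Gpnmb (r = 0.75), Cd14 and Lgals3, and 2 lower, Apoe and Cx3cr1. Outside the lists the highest were Rarres1 (r = 0.86), the inhibitory receptor Pilra (r = 0.83), complement factor D, Cfd (r = 0.79), the adhesion molecule Vcam1 (r = 0.77) and the lectin Fcna (r = 0.76). With the break after animal 22 as a covariate, no macrophage core gene was called with Mrc1. Gpnmb, Cd14, Lgals3, Apoe and Cx3cr1 then had a partial r of 0.50, 0.38, 0.46, -0.45 and -0.47 (limma, adjusted P of 0.19 to 0.57). Rarres1, Pilra and Fcna were still called, and Cfd and Vcam1 were not.

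Hormone cell, folliculostellate and endothelial genes were mostly lower with Mrc1. With Mrc1, 6 of 8 hormone cell genes tested were lower, among them Cga (r = -0.75), the alpha subunit of the glycoprotein hormones, Tshb (r = -0.75) and Gh1 (r = -0.72). Prl had r = -0.25 (adjusted P = 0.29), but its values hardly differed between rats (SD 0.14, against 0.36 for Cga, 0.91 for Tshb and 0.41 for Gh1). Of 6 folliculostellate genes, 5 were lower, S100b (r = -0.65) and Aldh1a1 (r = -0.70) among them, and of 4 endothelial genes 3 were lower. Of 3 fibroblast and pericyte genes, 1, Col3a1, was higher (r = 0.63) and 1, Dcn, lower (r = -0.61). Neither was called with the break as covariate (limma, partial r = 0.55 and -0.18, adjusted P = 0.062 and 0.93). The Notch target Hey2 was the lowest gene outside the lists (r = -0.84). With Csf1r as predictor 6 of 8, 5 of 6 and 3 of 4 genes of the same 3 lists were higher, as were 6.11% of all probe sets. With the break after animal 22 as a covariate, 0 genes of the 3 lists were called with Csf1r (limma, 1, 3 and 1 at an unadjusted P below 0.05). With Mrc1 S100b was the only 1 called, and 3 of 8, 5 of 6 and 0 of 4 had an unadjusted P below 0.05 (limma). With Cd74 0 genes of these 3 lists passed (limma; 2 hormone cell genes at an unadjusted P below 0.05). Nefl, the 1 posterior lobe gene tested, was lower with Mrc1 (r = -0.65) and higher with Csf1r (r = 0.72). With the break as covariate Nefl was called with neither (limma, partial r = -0.11 and 0.51, adjusted P = 0.97 and 0.074). The part of the cell mix in the values of Mrc1 and Csf1r was not tested.

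Other macrophage genes were higher with Csf1r, in a fit that called 6.11% of all probe sets higher and 5.43% lower with it. Of the 19 macrophage core genes, 9 were higher with Csf1r and 2, Fcgr3a and Cd14, lower (median r = 0.31). Those higher included the inhibitory Fc receptor Fcgr2b (r = 0.69), the macrophage adhesion receptor gene Adgre1 (r = 0.63), Apoe (r = 0.58), Mpeg1 (r = 0.52) and the complement genes C1qb (r = 0.50) and C1qa (r = 0.46). The protease Ctss (r = 0.84, adjusted P = 1.8e-09) and its inhibitor Cst3 (r = 0.75) were also higher, as was complement C3 (r = 0.87), the gene with the highest t outside the lists. With the break as covariate the Csf1r fit called 0.271% of all probe sets higher and 0.129% lower. Of the 19 core genes 3 were then called higher, Fcgr2b (partial r = 0.64), C1qb (0.61) and Adgre1 (0.56), and none lower. Apoe (0.52, adjusted P = 0.055), Mpeg1 (0.48, adjusted P = 0.12) and C1qa (0.37, adjusted P = 0.34) were not called. Ctss, Cst3 and C3 were still called. Of 1317 probe sets higher with Mrc1, 596 were lower with Csf1r (45.3% of the Mrc1 set, 70.8% of the Csf1r set), and 0 were higher with both; the fits share their 43 rats and the trend over the animal number.

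Il34, a ligand of CSF1R, was higher with Mrc1 (r = 0.61, adjusted P = 0.00054) and with Cd68 (r = 0.64, adjusted P = 0.0024). With the break as covariate neither was called, at a partial r of 0.37 with Mrc1 (adjusted P = 0.64) and 0.53 with Cd68 (adjusted P = 0.15), and Il34 itself had a trend over the animal number (44.3% of its variance, adjusted P = 0.0046). With Csf1r its r was -0.40 (adjusted P = 0.052). Csf1, the other ligand, had r of -0.23 with Mrc1 and 0.26 with Csf1r and passed with neither.

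**Figure D4:**
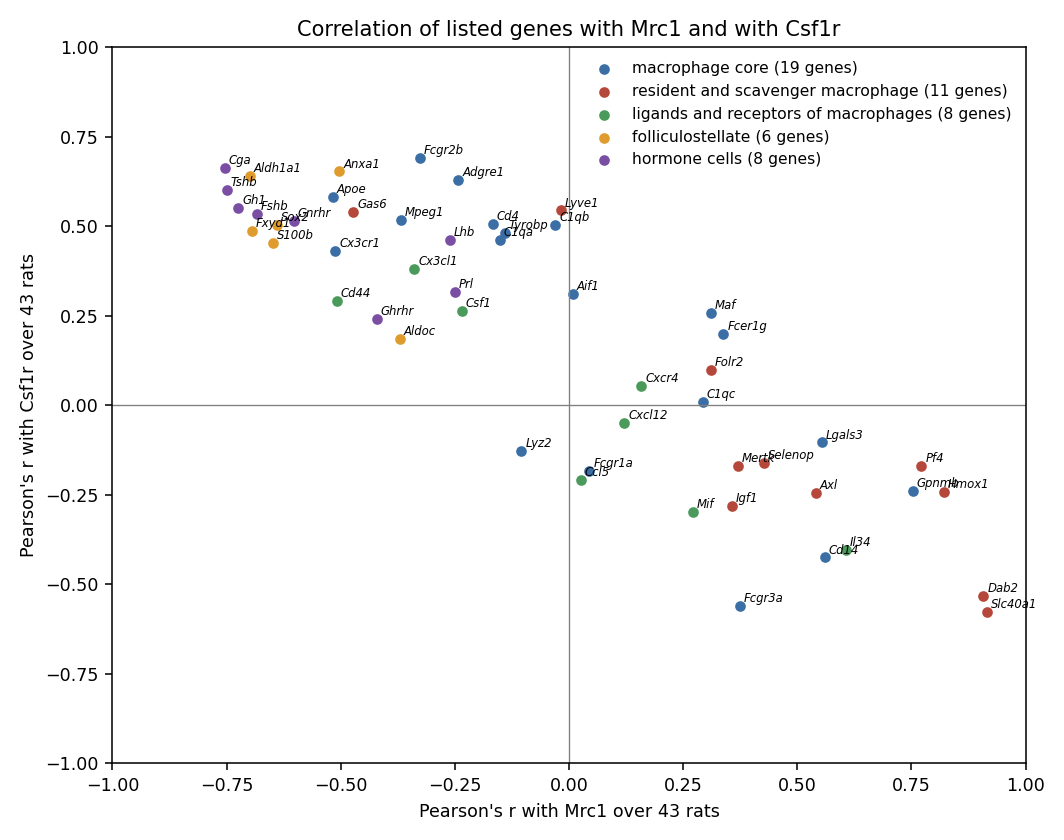
Pearson's r with Mrc1 (horizontal axis) and with Csf1r (vertical axis) over 43 rats for listed genes that passed the filter, 1 point per gene, coloured by list. All 8 hormone cell and all 6 folliculostellate genes lie at the upper left (negative with Mrc1, positive with Csf1r), 8 of 11 resident and scavenger genes lie at the lower right, and the 19 macrophage core genes spread over both, 9 at the upper left and 5 at the lower right.

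With the break after animal 22 as a covariate, the large sets around Mrc1 and Csf1r shrank and a smaller number of genes remained called. With Mrc1 0.129% of probe sets were then called. They included Slc40a1 (partial r = 0.80, adjusted P = 2.6e-07), Dab2 (0.79), Hmox1 (0.67), Pf4 (0.66), Rarres1 (0.65), Pilra (0.64) and Cd68 (0.68, adjusted P = 0.00095). Slc40a1, Dab2, Hmox1 and Pf4 were the only ones called of the 11 tested resident and scavenger genes. The rest of that list had a partial r from -0.05 for Igf1 to 0.36 for Axl. S100b was still lower (-0.66, adjusted P = 0.0013), the only 1 of the 6 folliculostellate genes called (limma, 5 of 6 at an unadjusted P below 0.05). Of the listed hormone cell genes 0 were called (limma, 3 of 8 at an unadjusted P below 0.05), and Cga had a partial r of -0.35 (adjusted P = 0.67). Outside the lists Gpha2, a gene for a glycoprotein hormone alpha subunit, was lower (-0.70, adjusted P = 0.00018). The relation of Csf1r with Mrc1 was not called, with a partial r of -0.19 (adjusted P = 0.93). With Cd68 0.103% of probe sets were called, Hmox1 (0.69), Axl (0.72) and Gpnmb (0.68) among them, and with Cd163 0% (0 probe sets by limma, 1004 at an unadjusted P below 0.05) were called, against 2051 probe sets without the covariate.

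The inverse relation of Csf1r and the class II genes became clearer. Over all 43 rats r ran from -0.27 for Cd74 to -0.41 for RT1-Bb, and RT1-Bb (rho = -0.47, permutation P = 0.0065 for r and 0.0018 for rho, adjusted P = 0.044) and RT1-Db1 (r = -0.40, rho = -0.50, permutation P = 0.0071 for r and 0.00078 for rho, adjusted P = 0.047) passed with Csf1r as predictor but not with the class II gene as predictor (adjusted P = 0.71 and 0.78). Without the 2 rats farthest from the median their r was -0.46 and -0.45. With the break as covariate the partial r was -0.60 for RT1-Bb, -0.58 for RT1-Db1 and -0.57 for RT1-Da, and these 3 passed with either gene as predictor, in fits on RT1-Bb, RT1-Db1, RT1-Da and Csf1r that called 0.277%, 0.232%, 0.29% and 0.399% of probe sets. RT1-Ba (-0.53) passed with Csf1r as predictor only, and Cd74 (-0.50, adjusted P = 0.081 and 0.19) with neither, the fits on RT1-Ba and Cd74 calling 0.0709% and 0.2% of probe sets. The r of RT1-Bb and Csf1r was -0.51 in animals 1 to 22 and -0.71 in animals 23 to 43.

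In these fits 19 named genes other than the members were called higher and 9 lower with RT1-Bb. Of the 19, 5 were called lower with Csf1r and 14 were not called with it. Of the 9, 8 were called higher with Csf1r and 1, Maf (-0.55 with RT1-Bb), was not. The fits share their 43 rats, and their predictors have a partial r of -0.60 with each other. The genes that follow were picked from these after their values were seen. Higher with RT1-Bb were Fcgr3a (partial r = 0.74, adjusted P = 2.2e-05), Cybb (0.72), the macrophage elastase Mmp12 (0.71), Dnase1l3, a secreted nuclease of macrophages and dendritic cells (0.67), and Clec10a, a lectin of dendritic cells and macrophages (0.58). Of these, Mmp12 (-0.55), Dnase1l3 (-0.60) and Clec10a (-0.56) were lower with Csf1r. Lower with RT1-Bb were Fcrl2 (-0.76, adjusted P = 5.2e-06), P2ry12 (-0.73), Gatm (-0.68), Fcgr2b (-0.65), Lyve1 (-0.58) and Adgre1 (-0.58). Of the 19 macrophage core genes, Fcgr3a and Lyz2 were called higher with RT1-Bb, and Fcgr2b, Adgre1 and Maf lower. The other core genes were not called, with partial r from -0.33 for C1qa to 0.46 for Fcgr1a. Clec10a was the only 1 called of the 5 dendritic cell genes tested. With Csf1r, P2ry12 had a partial r of 0.78 (adjusted P = 1.1e-06) and Fcrl2 one of 0.77.

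**Figure D5:**
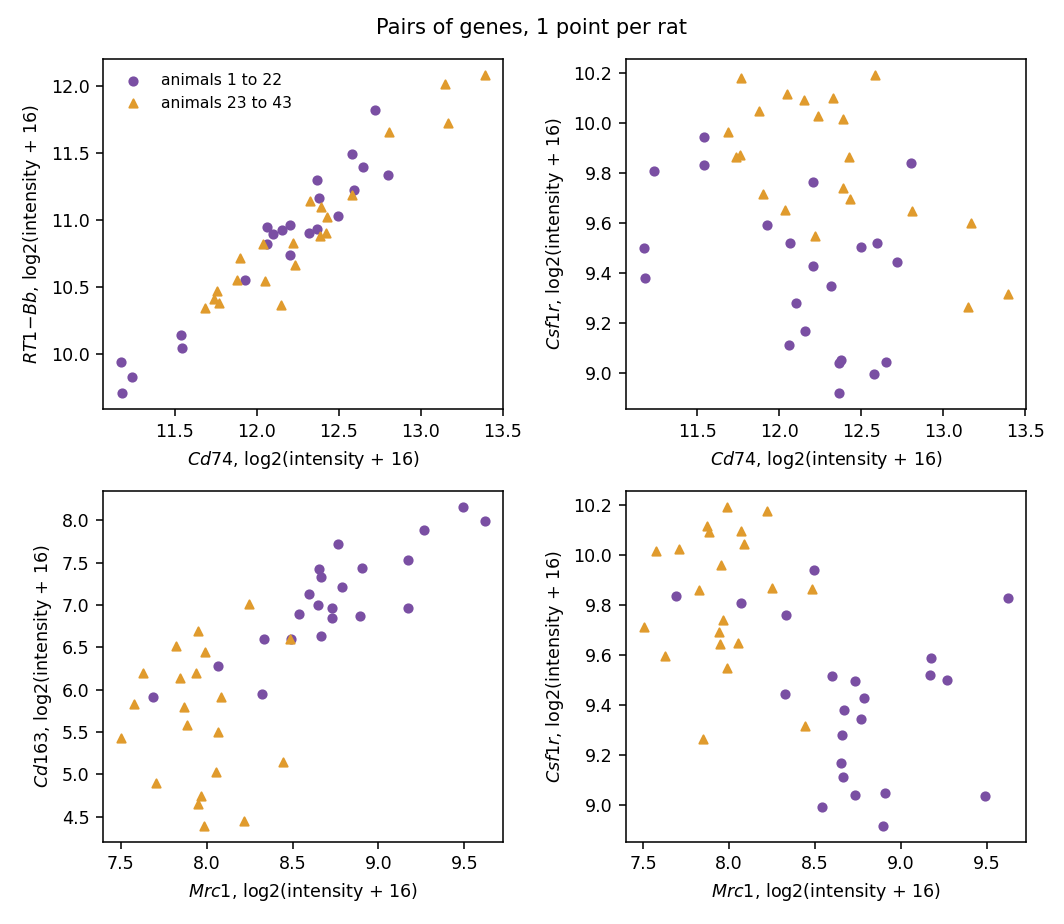
Levels of gene pairs on the log2(intensity + 16) scale, 1 point per rat, with animals 1 to 22 as purple circles and animals 23 to 43 as orange triangles. RT1-Bb follows Cd74 in both ranges (r = 0.96). Csf1r and Cd74 have a negative r in each range (-0.39 and -0.62). That pair was not called over all rats, with or without the break as covariate. The relation of Mrc1 with Cd163 is present in animals 1 to 22 only (r = 0.86 and 0.03), and Mrc1 and Csf1r have r of -0.26 and -0.05 within the ranges.

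No class II gene passed with Mrc1 or Cd68. Of the 20 pairs of a class II and a macrophage gene tested in both directions, 0 passed in both (limma; 9 at an unadjusted P below 0.05, each with Ptprc or Csf1r), and the median r of the 25 pairs, those with Cd163 included, was -0.09. For Mrc1 r lay between -0.25 for RT1-Ba and -0.14 for RT1-Bb, and for Cd68 between -0.09 for RT1-Ba and 0.08 for Cd74. Within animals 23 to 43, a range chosen after seeing the data, r of Cd68 with the class II genes was 0.28 to 0.50. Over all rats with the break as covariate, its partial r ran from -0.03 for RT1-Ba to 0.18 for Cd74, and none was called. A P above the threshold does not show that these genes vary independently.

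Ptprc lay between the groups. Its r was 0.35 to 0.40 with the class II genes, 0.46 with Cd68 (adjusted P = 0.050 with Cd68 and 0.20 with Ptprc as predictor), 0.28 with Mrc1 and -0.24 with Csf1r, and it was not called with any of the other members. The regression on Ptprc called 0.0966% of probe sets (0.142% with the break as covariate), and outside the lists the genes with the highest t were Clic2, an intracellular chloride channel protein (r = 0.70, adjusted P = 0.0011), Slamf9 (r = 0.61) and the lectin receptor Clec4a1 (r = 0.60). Fcgr3a was the 1 listed gene called (r = 0.63). The other Ptprc probe set, which was dim, had r = 0.66 with the representative.

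Markers of other leukocytes were mostly at the bottom of the scale. Of the genes with a probe set of their own, 13 of 14 for T and NK cells, 3 of 4 for B and plasma cells, all 7 for granulocytes and mast cells and 7 of 12 for dendritic cells were dim, which does not show that these cells were absent. Cd3e averaged 5.85 and Cd79b 4.90. Itgax, the dendritic cell and macrophage integrin CD11c, was dim as well (mean 6.12) and was not tested. Its r was 0.62 with RT1-Bb and 0.58 with Cd74. The other dim dendritic cell genes had r with Cd74 from -0.24 for Fscn1 to 0.11 for Cd40. Of the 5 dendritic cell genes tested, 0 passed with Cd74 (limma), with r from -0.23 for Itgae to 0.49 for Clec10a, and 1 was higher with RT1-Bb. Of the lymphocyte genes bright enough to test, Lck of T cells had r = 0.45 with Cd74 and did not pass, and Mzb1 of plasma cells had r = -0.20.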

How the data were processed

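Anterior pituitary RNA of 43 rats was hybridised to 1 array each. The deposited values are probe set intensities on a linear scale, which the authors had scaled to a common 2% trimmed mean (500.2 on every array). The software that summarised the probes was not stated in the labels. Intensities were used as log2(intensity + 16), and probe sets with a mean at or below the median were left out (15521 kept). The number of arrays limits the precision.

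Each kept probe set was regressed on 1 gene at a time (limma 3.58.1, R 4.3.3), with Benjamini-Hochberg adjustment over all probe sets and a threshold of 0.05. Trends over the animal number used a natural spline with 6 degrees of freedom. The fits were tested on simulated data. Permutation P-values were 2-sided (100000 permutations), and 36 pairs were tested in both directions.

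The members, the gene lists and the break after animal 22 were chosen with earlier results of these data known. Genes named outside the lists came from the 12 with the highest and 6 with the lowest t for Cd74 and Mrc1 and the 3 highest for the others; genes in the fits with the break, and Itgax, Brd2 and Tcof1, were chosen after their values were seen. Promoters came from RefSeq (GRCr8), and all 10 genes matched. Alternatives covered the pseudocount, filter, normalization, probe sets, arrays, covariates and ranks.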

Additional observations from a re-analysis of the deposited data

How the results depend on the processing

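The 12 pairs of genes called became 7 with the mean of all probe sets of a gene, where dim probe sets enter the values of RT1-Ba and RT1-Bb, and 10 to 15 under the other alternatives; it was 12 without any 1 rat. Without any 1 rat, Cd74 called 18 to 29 probe sets, Mrc1 2383 to 3092, and the spline over the animal number 3843 to 6923. The 22 probe sets called on Cd74 became 14 with the stricter filter (fewer probe sets tested), 5 with ranks, 7 in animals 1 to 22 and 7 in animals 23 to 43. The 2768 probe sets called on Mrc1 became 1785 with the stricter filter, 15 with the spline and 20 with the step as covariate, 20 in animals 1 to 22, 0 in animals 23 to 43 and 23 with quantile normalization and the step. The count of probe sets with a trend over animal numbers, 6056, became 3843 without animal 43 and 2546 with array quality (actin and GAPDH 3 prime minus 5 prime signal) as covariate. The cause was not tested where the setting does not itself remove probe sets or rats.

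For single genes, the mean of all probe sets lost 5 class II pairs, all with RT1-Ba or RT1-Bb, at r of 0.43 to 0.56. Mrc1 with Cd68 lost its call with ranks (adjusted P = 0.075) and in animals 23 to 43. The trend of Csf1r lost its call with array quality as covariate (adjusted P = 0.052). The trend of Cd68 passed with array medians subtracted (adjusted P = 0.028), as a step (0.011) and without animal 4, 11, 12, 16 or 31 (0.020 to 0.045). The separate ranges of animals, and the step with quantile normalization, were chosen after seeing the data. No paired analysis was possible because there is 1 group.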
